A study of Mus musculus with 12 samples.

Results

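Complement and coagulation factors are plasma proteins that are made mainly by hepatocytes, and 39 of the 40 listed genes for them were found among the 24033 gene symbols of the deposited liver table. They were taken by symbol, 17 as complement genes and 22 as genes of coagulation, its inhibitors and fibrinolysis. The symbol C1s was not matched; the table holds C1s1, which RefSeq gives as a synonym of it, and its values stand apart from the counts below. All 39 passed the filter on low values, a mean log2 value of at least 4 over all libraries.

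The livers came from wild-type C57BL/6 female mice in 4 groups of 3 libraries each. These were ovariectomized mice given dexamethasone at 1 mg/kg, ovariectomized mice given PBS as vehicle, intact mice given dexamethasone at 1 mg/kg, and intact mice given PBS. All livers were taken 6 h after dosing, and every mouse carried the wild-type genotype. Dexamethasone is a synthetic agonist of the glucocorticoid receptor, and ovariectomy removes the ovaries, the main source of circulating oestrogen. The study's title names the hepatic glucocorticoid receptor transcriptome in normal and hypogonadal females as its subject. The labels do not say that the 3 libraries of a group came from separate mice, and the p-values therefore cover only library-to-library spread, which may be technical.

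Complement is a cascade of plasma proteases and pore-forming proteins that marks and lyses microbes. The classical pathway starts from antibody-bound C1, the lectin pathway from mannose-binding lectins and their associated proteases, and the alternative pathway from C3 itself, and all meet at the cleavage of C3. Coagulation is a cascade of vitamin K dependent and other proteases that ends in thrombin, which cuts fibrinogen to fibrin, and plasmin later dissolves the clot. Many of these genes belong to the hepatic acute phase response, which interleukin-6 and glucocorticoids are known to shape.

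The 3 fibrinogen genes lie next to each other on chromosome 3 and encode the 3 chains of 1 protein, so the 250 bases before each start are shown with the same stretch of C3, the gene on which the complement pathways meet. The sequences are from RefSeq on GRCm38.p6, for Fga at chr3:83025903-83026152 on the plus strand, Fgb at chr3:83049864-83050113 on the minus strand, Fgg at chr3:83007474-83007723 on the plus strand and C3 at chr17:57228137-57228386 on the minus strand. Each reads 5′ to 3′ on the strand of its gene, and capitals mark matches to 8 motifs searched on both strands.
Fga: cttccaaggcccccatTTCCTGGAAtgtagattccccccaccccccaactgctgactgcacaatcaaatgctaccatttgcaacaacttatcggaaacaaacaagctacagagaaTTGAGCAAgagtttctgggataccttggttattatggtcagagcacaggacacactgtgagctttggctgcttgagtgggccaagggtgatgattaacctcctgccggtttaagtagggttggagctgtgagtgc
Fgb: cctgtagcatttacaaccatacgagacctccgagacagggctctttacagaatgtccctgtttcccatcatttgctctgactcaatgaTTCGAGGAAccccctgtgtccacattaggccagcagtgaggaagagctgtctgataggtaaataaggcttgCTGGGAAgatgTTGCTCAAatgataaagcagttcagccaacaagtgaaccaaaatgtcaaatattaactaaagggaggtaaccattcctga
Fgg: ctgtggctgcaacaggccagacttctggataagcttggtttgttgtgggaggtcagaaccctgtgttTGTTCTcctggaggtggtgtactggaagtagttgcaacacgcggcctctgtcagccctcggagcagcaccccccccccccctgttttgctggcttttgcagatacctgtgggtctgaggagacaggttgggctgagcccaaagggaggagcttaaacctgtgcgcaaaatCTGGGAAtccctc
C3: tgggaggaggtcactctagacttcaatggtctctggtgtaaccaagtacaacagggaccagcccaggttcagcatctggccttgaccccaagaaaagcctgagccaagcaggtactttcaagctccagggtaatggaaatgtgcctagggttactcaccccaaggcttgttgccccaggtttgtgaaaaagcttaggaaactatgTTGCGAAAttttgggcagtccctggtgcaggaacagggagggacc

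The C/EBP motif, spelled TTGCNNAA, lay in Fga, Fgb and C3. The STAT motif TTCNNNGAA lay in Fga and Fgb. The interleukin-6 type II motif CTGGGAA lay in Fgb and Fgg. The glucocorticoid receptor hexamer AGAACA lay in Fgg, on the minus strand. Over the RefSeq windows that also hold 50 bases after the start, 30 of the 39 genes matched an entry, and the 9 without one were C2, C4b, Masp1, Cfb, Cfi, Serping1, Proc, Kng1 and Plg. The C/EBP motif was in 10 of those 30 windows (33.3%) and in 12.2% of the 27025 genes with a window. The STAT motif was in 9 (30%) against 9.55% of all genes, the interleukin-6 motif in 7 (23.3%) against 12.7%, and the hexamer in 12 (40%) against 21.3%. The glucocorticoid receptor palindrome, which is that hexamer and its reverse complement 3 bases apart, was in 0 of the 30 windows, as were the HNF1 palindrome, the HNF4 motif CAAAGTCCA and the oestrogen receptor palindrome. These longer strings were rare in all genes, at 0.0111%, 0.0481%, 0.555% and 0.074% in that order. Finding 0 in 30 windows therefore does not set the members apart. A match is a string of letters and does not show that a factor binds there.

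In intact females, dexamethasone lowered most of the genes. By limma on the log2 values of all 12965 genes tested, 29 of 39 fell and 0 rose at a Benjamini-Hochberg adjusted p under 0.05, where 25.9% of all genes fell and 22.8% rose. One gene was higher at an unadjusted p under 0.05, C8g. In ovariectomized females 13 fell and 4 rose, against 19.4% of all genes that fell and 21.3% that rose. Falls in intact females covered 13 of 17 complement genes, with a median log2 fold change of -0.51, and 16 of 22 coagulation genes, with a median of -0.29; the median over all genes was 0.0013. In ovariectomized females 5 complement genes fell and 3 rose, with a median of -0.06, and 8 coagulation genes fell and 1 rose, with a median of -0.08; the median over all genes was -0.0003. The 2 responses share no library, and 12 genes fell in both, 41.4% of those that fell in intact females and 92.3% of those that fell in ovariectomized females. Over all genes tested, the 1369 that fell in both were 40.7% and 54.4% of those that fell in intact and in ovariectomized females. After quantile normalization 20 genes fell in intact females; C1ra, C4bp, Fgg, F9, F10, Proc, Serpinc1, Cpb2 and Hgfac no longer passed, at -0.24 to -0.06. In ovariectomized females 17 then fell and 3 rose, with Serping1 (-0.25), F2 (-0.15), F13b (-0.20) and Serpinc1 (-0.25) added to the falls. The contrast between the states was thus smaller under that scaling. The complement medians became -0.13 in ovariectomized and -0.36 in intact females, and the coagulation medians -0.17 in ovariectomized and -0.18 in intact females.

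**Figure D1:**
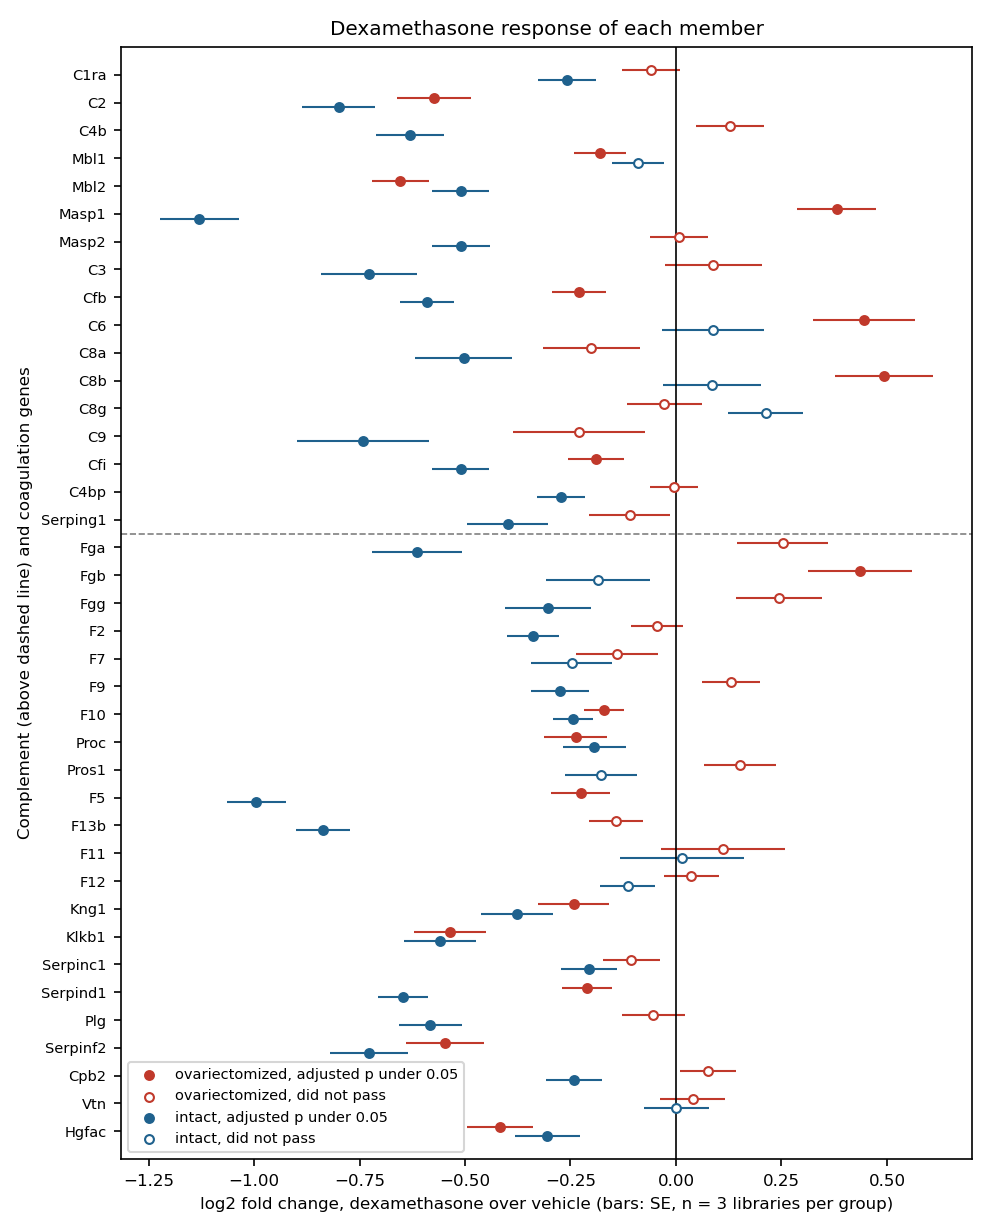
Dexamethasone over vehicle in ovariectomized (red, upper) and intact (blue, lower) females, as the log2 fold change with its SE for each of 39 genes, 3 libraries per group; filled points passed an adjusted p under 0.05. Blue points lie left of 0 for most genes, down to -1.13 for Masp1, while red points lie on both sides, between -0.65 for Mbl2 and 0.49 for C8b.

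The difference between the responses was tested directly. This test uses all 12 libraries, so it shares the intact vehicle libraries with the response in intact females and is not independent of it. The response in ovariectomized females minus that in intact females was above 0 for 17 genes and below 0 for 0, where 15.3% of all genes passed upward and 9.65% downward; 0 members were below 0 at an unadjusted p under 0.05 as well. These were 7 complement genes (Masp1, C3, C4b, Masp2, Cfb, Cfi and C4bp) and 10 coagulation genes (Fga, F5, F13b, Fgb, Fgg, Plg, Serpind1, F9, Cpb2 and F2). The calls of Cfi, C4bp, F2, Cpb2 and Fgb were each lost when certain single libraries were left out, with values from 0.23 to 0.61. The split depended on scaling. After quantile normalization 8 passed upward, namely Masp1, Masp2, C4b, C3, F5, F13b, Serpind1 and Plg, and 3 passed downward, Mbl2, C8g and Hgfac. The median difference was 0.32 over complement and 0.24 over coagulation genes, and 0.11 and 0.02 after quantile normalization. Without intact dexamethasone replicate 3, C6 (0.48), C8b (0.51), C9 (0.66) and Pros1 (0.43) also passed upward and C8g downward (-0.33).

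Ovariectomy alone also lowered many of the genes, in a comparison that shares its intact vehicle libraries with the dexamethasone response of intact females. Under vehicle, 19 of 39 genes were lower in ovariectomized than in intact females and 2 were higher, where 15.5% of all genes were lower and 12.4% higher. The lower genes ranged from Masp1 at -1.07 to Cfi at -0.27. Complement gave 8 lower and 2 higher, with a median of -0.27, and coagulation 11 lower and 0 higher, with a median of -0.26; the median over all genes was -0.01. No coagulation gene was higher at an unadjusted p under 0.05 either. Under dexamethasone 3 genes were higher in ovariectomized than in intact females, Masp1, Masp2 and C4b, and 0 were lower, where 7.74% of all genes were higher and 5.08% lower; at an unadjusted p under 0.05, 11 were higher and 2 lower. None of these 3 passed without intact dexamethasone replicate 1, where their adjusted p lay between 0.0541 and 0.0669, or without ovariectomized dexamethasone replicate 3, where it lay between 0.0640 and 0.107. After quantile normalization Masp2 (0.22) and C4b (0.084) did not pass. C4b also missed the threshold without any 1 of the other 4 dexamethasone libraries, at 0.25 to 0.32.

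Intact females on vehicle had the highest group mean for 28 of the 39 genes (71.8%), against 30.6% of all genes tested. The same intact vehicle libraries enter the intact response, the difference between responses and the ovariectomy comparison under vehicle, so these results are not independent. For 17 genes (43.6%) all 3 intact vehicle libraries lay above the other 9 libraries, against 11.8% of all genes; these were 9 of 17 complement genes and 8 of 22 coagulation genes. The libraries of the 2 groups compared did not overlap for 17 genes that were lower and 8 that were higher with dexamethasone in ovariectomized females (26.5% and 28.1% of all genes) and for 28 lower and 1 higher in intact females (28.6% and 26.9%). After ovariectomy they did not overlap for 24 lower and 2 higher genes under vehicle (24.4% and 20.7%) and for 2 lower and 15 higher under dexamethasone (14.6% and 19.5%). The mean over the complement genes, as a difference from the intact vehicle mean, was -0.36, -0.34 and -0.22 in ovariectomized dexamethasone libraries, -0.28, -0.21 and -0.28 in ovariectomized vehicle libraries and -0.48, -0.39 and -0.41 in intact dexamethasone libraries. The mean over the coagulation genes was -0.30, -0.33 and -0.34 in ovariectomized dexamethasone libraries, -0.27, -0.25 and -0.23 in ovariectomized vehicle libraries and -0.40, -0.34 and -0.37 in intact dexamethasone libraries. Both classes stood lower in all 9 other libraries than in any intact vehicle library.

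**Figure D2:**
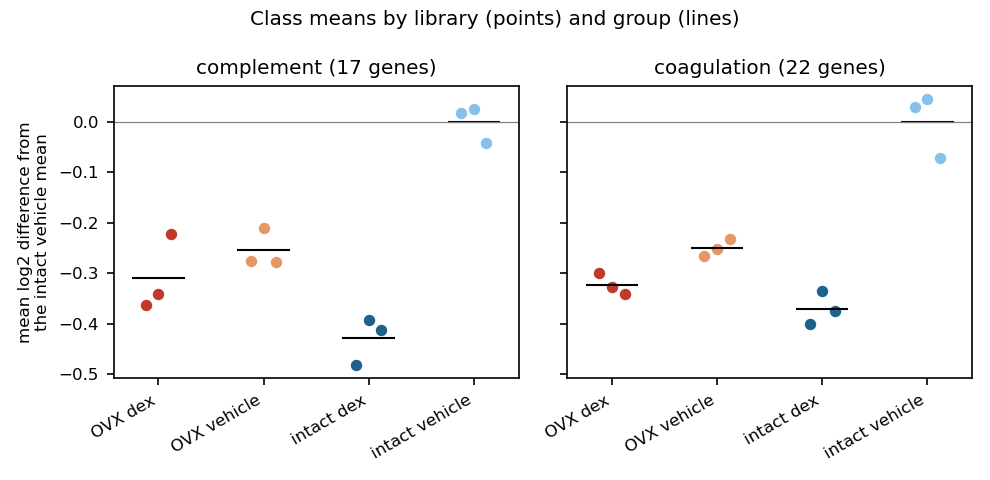
Mean log2 difference from the intact vehicle mean over 17 complement genes (left) and 22 coagulation genes (right), with 1 point per library and a line at each group mean (OVX is ovariectomized, dex is dexamethasone). The intact vehicle libraries sit around 0 and the other 9 lie between -0.48 and -0.21.

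The libraries had nearly equal medians, 8.82 to 8.86, and the first principal component, with 49.9% of the variance, separated dexamethasone from vehicle. Hepatocyte markers, 8 of 8 measured and none at 0, had a summed level, on the log2 scale, of 22.23 to 22.42 under dexamethasone and 22.06 to 22.20 under vehicle in ovariectomized females, and of 22.06 to 22.16 under dexamethasone and 22.21 to 22.35 under vehicle in intact females. Macrophage markers, 11 of 12 in the table and none at 0, summed to 13.40 to 13.75 and 13.63 to 13.87 in ovariectomized females on dexamethasone and vehicle, and to 13.85 to 13.97 and 14.06 to 14.14 in intact females on dexamethasone and vehicle. The macrophage sum was highest in intact vehicle livers, but not all single markers followed it. With dexamethasone 3 of the 11 fell and 0 rose in intact females (median -0.20). In ovariectomized females 5 fell and 0 rose (median -0.16). No macrophage marker rose at an unadjusted p under 0.05 in either state. The hepatocyte sum, most of which is Alb, was higher with dexamethasone after ovariectomy and lower with it in intact females, but single markers differed. In intact females 3 of the 8 rose, 1 fell and the median was 0.16, and in ovariectomized females 3 rose, 0 fell (0 also at an unadjusted p under 0.05) and the median was 0.23. Stellate markers, 8 of 8, summed to 13.54 to 13.78 and 13.30 to 13.74 on dexamethasone and vehicle in ovariectomized females, and to 14.03 to 14.14 and 13.31 to 13.69 in intact females. Endothelial markers, 7 of 7, summed to 13.10 to 13.38 and 12.84 to 13.05 in ovariectomized females, and to 13.20 to 13.60 and 12.83 to 12.95 in intact females, in the same order. Single endothelial markers were split. With dexamethasone 2 of the 7 rose and 3 fell in ovariectomized females (median -0.01), and 3 rose and 1 fell in intact females (median 0.32). Of the 8 stellate markers, 1 rose and 0 fell in ovariectomized females (median 0.08), and 4 rose and 0 fell in intact females (median 0.51). No stellate marker fell at an unadjusted p under 0.05 in either state. The sum of the cholangiocyte markers, 5 of 5, was highest in ovariectomized vehicle livers, at 11.30 to 11.57, against 10.82 to 11.22 in the other groups. Most of that sum is Spp1, and single markers differed. Epcam was also highest in ovariectomized vehicle livers. Krt19 and Sox9 were instead higher in every intact dexamethasone library than in any ovariectomized vehicle library, and for Krt7 these 2 groups overlapped. The part of these levels in the results was not tested. In whole liver, fewer cells of a type and less RNA per cell cannot be told apart. The fold changes also moved with transcript length over 12898 genes. For the difference between responses Spearman's rho with length was 0.47 over the 39 members and 0.31 over all genes, and for ovariectomy under vehicle it was -0.44 and -0.37. With a length and GC trend removed, an alternative chosen after seeing the data, 15 of the 17 genes above 0 in the difference between responses kept their call. C4bp (0.18) and Fgb (0.52) lost it, while Serping1 (0.38) and F12 (0.33) passed. Of the 19 genes that were lower after ovariectomy under vehicle, 15 kept their call; C6, C4bp, Fgb and Pros1 lost it, and Cfb, F7, F12 and Serpinf2 passed. Both rises there, of Mbl1 and C8g, lost their calls, as did the fall of Mbl1 with dexamethasone after ovariectomy (-0.18) and that of Serpinc1 in intact females (-0.075).

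**Figure D3:**
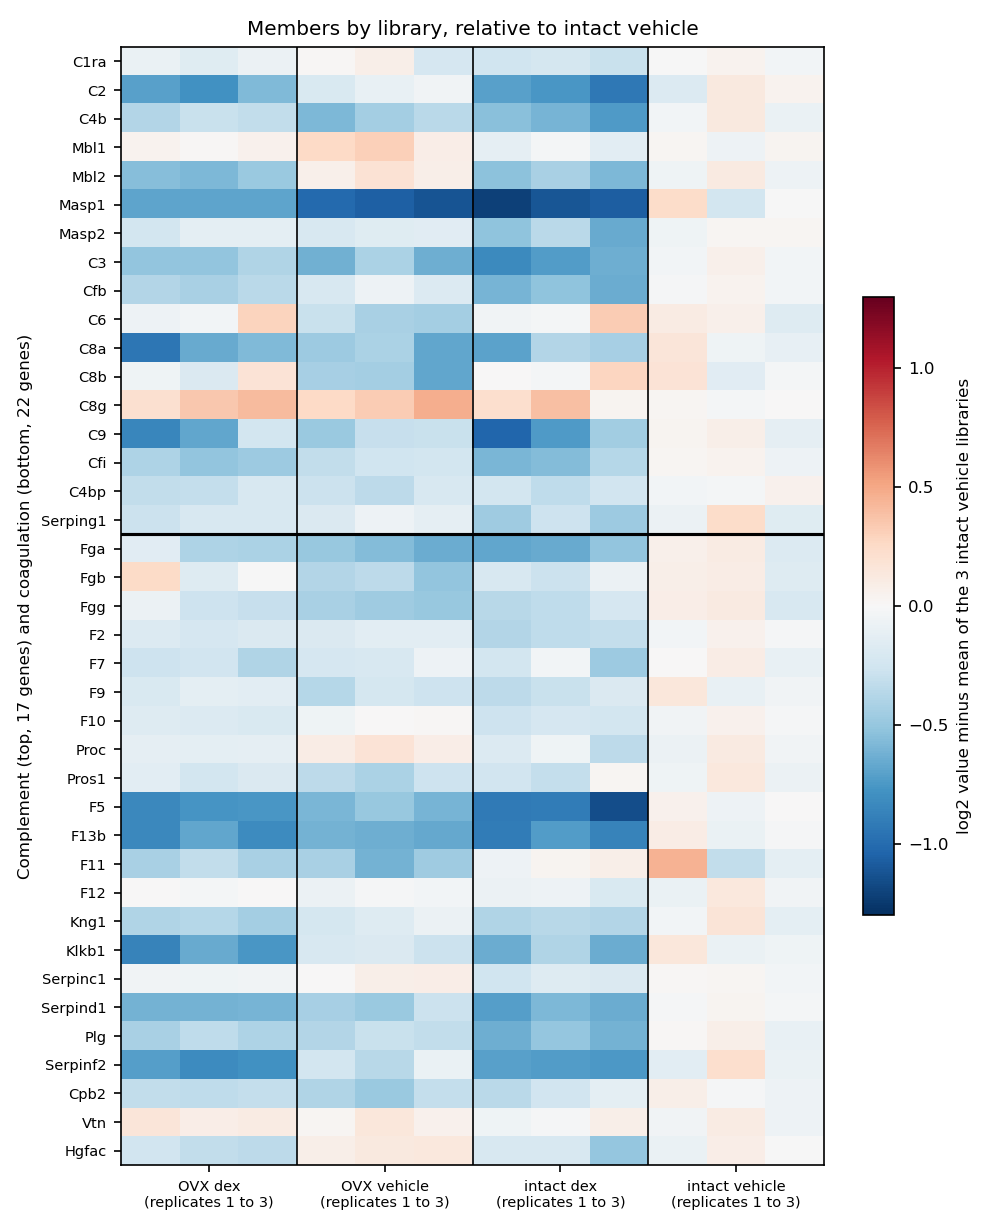
Each of 39 genes (rows, complement above the line and coagulation below it) in each of 12 libraries (columns, by group), coloured by its log2 value minus the mean of the 3 intact vehicle libraries. Blue fills most rows in all groups but intact vehicle; C8g and Vtn are among the rows that do not follow, and C2, Mbl2 and Serpinf2 are darker under dexamethasone than under vehicle in both gonadal states.

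In the lectin pathway, Masp1 encodes a protease that is activated on mannose-binding lectin and in turn activates MASP-2. Its log2 value was 10.15, 10.15 and 10.15 in ovariectomized dexamethasone libraries, against 9.82, 9.77 and 9.71 in ovariectomized vehicle libraries. In intact females it was 9.63, 9.73 and 9.77 on dexamethasone, against 11.08, 10.60 and 10.84 on vehicle. The groups did not overlap in either gonadal state, and the intact vehicle libraries stood above the rest. Masp1 thus rose with dexamethasone in ovariectomized females (log2 fold change 0.38 ± 0.094 SE, limma adjusted p = 0.00717) and fell in intact females (-1.13 ± 0.094, adjusted p = 6.69e-06, 2.19-fold lower). Among the 39 genes it alone passed in opposite directions. The difference between the responses was 1.51 ± 0.13 (adjusted p = 0.000155), and under vehicle Masp1 was lower in ovariectomized than in intact females (-1.07 ± 0.094, adjusted p = 0.000121).

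Masp2, the protease that cleaves C4 and C2, fell in intact females (-0.51 ± 0.069, adjusted p = 0.000133), while its change in ovariectomized females was 0.01 ± 0.069 and did not pass. The difference was 0.52 ± 0.097 (adjusted p = 0.00357). The lectins themselves, which bind sugars on microbes, behaved otherwise. Mbl2 had 13.73, 13.70 and 13.80 in ovariectomized dexamethasone livers, against 14.36, 14.48 and 14.36 in ovariectomized vehicle livers. In intact females it had 13.76, 13.87 and 13.71 on dexamethasone, against 14.23, 14.41 and 14.22 on vehicle. Dexamethasone and vehicle libraries were apart in both states, with falls of -0.65 ± 0.068 in ovariectomized (adjusted p = 4.00e-05) and -0.51 ± 0.068 in intact females (adjusted p = 0.000123). The difference, -0.14 ± 0.096, did not pass (adjusted p = 0.293), though after quantile normalization it was -0.38 and passed (adjusted p = 0.0114). Mbl1 was higher in ovariectomized than in intact vehicle livers (0.22 ± 0.062, adjusted p = 0.02) and fell with dexamethasone in ovariectomized females (-0.18 ± 0.062, adjusted p = 0.0344). The fall of Mbl1 missed the threshold without ovariectomized dexamethasone replicate 1, 2 or 3 or ovariectomized vehicle replicate 1 or 2, at -0.19 to -0.14. Its rise did so without intact vehicle replicate 2 or ovariectomized vehicle replicate 1 or 2, at 0.18 to 0.20.

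In the classical pathway, C1ra, the C1r protease of the C1 complex, fell in intact females (-0.26 ± 0.069, adjusted p = 0.00888) and not past the threshold in ovariectomized females (-0.06 ± 0.069). Without ovariectomized vehicle replicate 3 the second value was -0.15 and passed (adjusted p = 0.0457). C1s1, the partner protease outside the counted list, fell in both, at -0.27 ± 0.073 in ovariectomized (adjusted p = 0.012) and -0.33 ± 0.073 in intact females (adjusted p = 0.00277). C2 supplies the protease part of the C3 convertase of the classical and lectin pathways. It had 11.75, 11.67 and 11.88 in ovariectomized dexamethasone livers, against 12.26, 12.36 and 12.40 in ovariectomized vehicle livers. In intact females C2 had 11.75, 11.70 and 11.52 on dexamethasone, against 12.28, 12.59 and 12.50 on vehicle. The treatments did not overlap in either state, and C2 fell, at -0.57 ± 0.087 (adjusted p = 0.000432) and -0.80 ± 0.087 (adjusted p = 3.54e-05), with a difference of 0.23 ± 0.12 that did not pass.

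C4b, which supplies the other part of that convertase, had 14.56, 14.64 and 14.61 in ovariectomized dexamethasone livers, against 14.35, 14.49 and 14.58 in ovariectomized vehicle livers. In intact females it had 14.39, 14.33 and 14.20 on dexamethasone, against 14.90, 15.06 and 14.85 on vehicle. The groups overlapped in ovariectomized females, where the change was 0.13 ± 0.080, and lay apart in intact females, where C4b fell, at -0.63 ± 0.080 (adjusted p = 9.61e-05). The difference was 0.76 ± 0.11 (adjusted p = 0.00126). Over 50-base words, C4b shares 34.6% of its transcript sequence with C4a, and C1ra 50.8% with C1rb and Gm18840. C2 shares 38.7% and Cfb 73% with the entry Gm20547. Reads from the shared stretches of these 4 genes may have been left uncounted or assigned elsewhere, and the annotation that was counted is not stated. Without these 4 genes and Kng1 and Klkb1, which share 17.2% and 42.7%, 9 genes fell and 4 rose in ovariectomized females and 23 fell in intact females.

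C3, the point where the 3 complement pathways meet, had 17.92, 17.91 and 18.04 in ovariectomized dexamethasone livers, against 17.80, 18.01 and 17.79 in ovariectomized vehicle livers. In intact females it had 17.60, 17.70 and 17.79 on dexamethasone, against 18.39, 18.49 and 18.39 on vehicle. The 2 treatments overlapped in ovariectomized females, and the 3 intact vehicle libraries stood above the other 9. C3 fell in intact females (-0.73 ± 0.11, adjusted p = 0.000363, 1.66-fold lower), and its change in ovariectomized females, 0.09 ± 0.11, did not pass. The difference was 0.82 ± 0.16 (adjusted p = 0.00484), and under vehicle C3 was lower in ovariectomized than in intact females (-0.56 ± 0.11, adjusted p = 0.00492). Cfb, the protease of the alternative C3 convertase, fell in both states, at -0.23 ± 0.064 in ovariectomized (adjusted p = 0.0132) and -0.59 ± 0.064 in intact females (adjusted p = 3.28e-05); the first lost its call without ovariectomized vehicle replicate 2 (-0.19, adjusted p = 0.0535).

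The terminal genes encode proteins that form the membrane attack complex. C8a and C8b, adjacent on chromosome 4, and C8g encode the 3 chains of C8. C8b had 12.30, 12.17 and 12.53 in ovariectomized dexamethasone livers, against 11.93, 11.91 and 11.68 in ovariectomized vehicle livers. In intact females C8b had 12.36, 12.33 and 12.64 on dexamethasone, against 12.53, 12.21 and 12.33 on vehicle. The ovariectomized vehicle libraries were the lowest of the 12, and C8b rose with dexamethasone in ovariectomized females (0.49 ± 0.12, adjusted p = 0.00589), with 0.08 ± 0.12 in intact females; the difference between the responses, 0.41 ± 0.17, did not pass (adjusted p = 0.0887). C8a instead fell in intact females (-0.50 ± 0.11, adjusted p = 0.00369), with -0.20 ± 0.11 in ovariectomized females. After ovariectomy under vehicle both were lower (C8a -0.52 ± 0.11, adjusted p = 0.00711; C8b -0.52 ± 0.12, adjusted p = 0.00788).

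C8g, the lipocalin-like chain of C8, went the other way after ovariectomy. It had 13.42, 13.49 and 13.64 in ovariectomized vehicle livers, against 13.19, 13.14 and 13.17 in intact vehicle livers, a rise of 0.35 ± 0.089 (adjusted p = 0.0133) that did not pass without ovariectomized vehicle replicate 3 (0.29, adjusted p = 0.0515). Its change with dexamethasone in intact females, 0.21 ± 0.089, did not pass (adjusted p = 0.0663), but passed at 0.38 after quantile normalization (adjusted p = 0.000568) and at 0.30 without intact dexamethasone replicate 3 (adjusted p = 0.0113). C6, which binds C5b first, had 8.81, 8.85 and 9.17 in ovariectomized dexamethasone livers, against 8.59, 8.46 and 8.44 in ovariectomized vehicle livers, and rose there (0.45 ± 0.12, adjusted p = 0.0118). Without ovariectomized dexamethasone replicate 3, its highest library, the rise of C6 was 0.33 (adjusted p = 0.0528). Under vehicle C6 was lower in ovariectomized than in intact females (-0.38 ± 0.12, adjusted p = 0.0336), a call lost without any 1 of intact vehicle replicates 1 and 2 and ovariectomized vehicle replicates 1, 2 and 3, at -0.43 to -0.33. C9, which polymerises into the pore, fell in intact females (-0.74 ± 0.16, adjusted p = 0.00222), with -0.23 ± 0.16 in ovariectomized females. Without ovariectomized dexamethasone replicate 3, the second value was -0.40 and passed (adjusted p = 0.0481).

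The 3 inhibitors of complement all fell in intact females. They were Cfi, the protease that cuts C3b and C4b (-0.51 ± 0.067, adjusted p = 0.000112), C4bp, its cofactor for C4b (-0.27 ± 0.057, adjusted p = 0.00213), and Serping1, the C1 inhibitor that also controls the contact system (-0.40 ± 0.096, adjusted p = 0.00499). In ovariectomized females Cfi fell, at -0.19 ± 0.067 (adjusted p = 0.0403), a call lost without any of 5 single libraries (ovariectomized dexamethasone replicate 2 or 3 and ovariectomized vehicle replicate 1, 2 or 3), with values from -0.21 to -0.16. C4bp gave -0.0038 ± 0.057 and Serping1 -0.11 ± 0.096 in ovariectomized females, neither past the threshold.

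**Figure D4:**
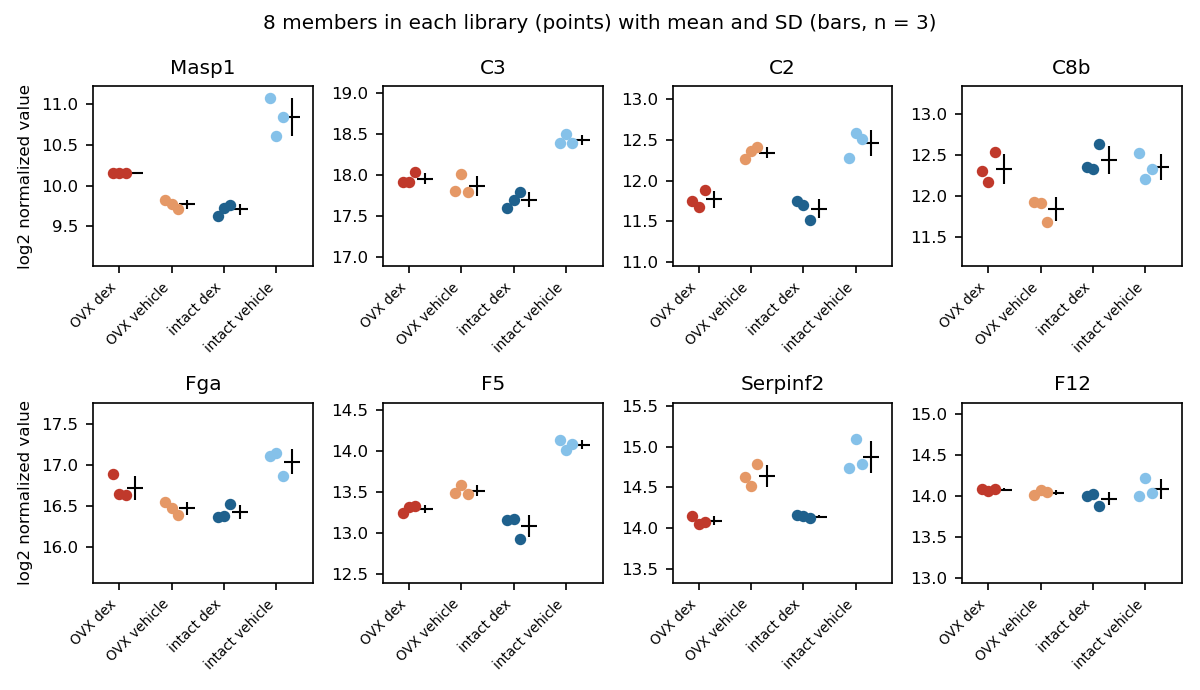
Log2 values of 8 genes in each library (points) with the mean and SD of each group of 3 (black), each panel spanning 2.2 log2 units (OVX is ovariectomized, dex is dexamethasone). Masp1, C3, Fga and F5 are highest in intact vehicle livers, C2 and Serpinf2 are lower under dexamethasone in both gonadal states, C8b is lowest in ovariectomized vehicle livers, and F12 shows no call.

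Among the clotting genes, the dexamethasone responses of all 3 fibrinogen chains differed between ovariectomized and intact females, though none of the 3 differences passed after quantile normalization. Fga, the alpha chain, had 16.89, 16.64 and 16.63 in ovariectomized dexamethasone livers, against 16.54, 16.47 and 16.39 in ovariectomized vehicle livers. In intact females Fga had 16.37, 16.38 and 16.53 on dexamethasone, against 17.11, 17.15 and 16.87 on vehicle. The libraries were apart in both states, higher with dexamethasone after ovariectomy and lower with it in intact females. The fall in intact females passed (-0.61 ± 0.11, adjusted p = 0.000703), and the change in ovariectomized females did not (0.25 ± 0.11, adjusted p = 0.0789). The difference between them was 0.87 ± 0.15 (adjusted p = 0.00259), and 0.50 after quantile normalization, which did not pass (adjusted p = 0.0665).

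Fgb, the beta chain, had 17.43, 17.02 and 17.17 in ovariectomized dexamethasone livers, against 16.80, 16.84 and 16.68 in ovariectomized vehicle livers. It rose there (0.44 ± 0.12, adjusted p = 0.0149), with -0.18 ± 0.12 in intact females, which did not pass. This rise is sensitive to scaling, since after quantile normalization it was -0.04 (adjusted p = 0.795). It also missed the threshold without ovariectomized dexamethasone replicate 1 (0.32, adjusted p = 0.065) or ovariectomized vehicle replicate 3 (0.39, adjusted p = 0.0508). Fgg, the gamma chain, changed by 0.24 ± 0.10 in ovariectomized females (adjusted p = 0.0752) and at -0.30 ± 0.10 in intact females (adjusted p = 0.0281). The call in intact females was lost without intact dexamethasone replicate 1 or 2 or intact vehicle replicate 1 or 2, at -0.29 to -0.24. After ovariectomy under vehicle all 3 chains were lower, Fga at -0.57 ± 0.11 (adjusted p = 0.00316), Fgg at -0.46 ± 0.10 (adjusted p = 0.00739) and Fgb at -0.41 ± 0.12 (adjusted p = 0.0281). The last lost its call without any 1 of intact vehicle replicates 1 and 2 and ovariectomized vehicle replicates 1, 2 and 3, at -0.44 to -0.36, and after quantile normalization, at -0.18.

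F5 and F13b gave the largest falls of the coagulation genes in intact females. F5, the cofactor of factor Xa in making thrombin, had 13.24, 13.31 and 13.32 in ovariectomized dexamethasone livers, against 13.48, 13.59 and 13.48 in ovariectomized vehicle livers. In intact females F5 had 13.16, 13.17 and 12.93 on dexamethasone, against 14.14, 14.02 and 14.09 on vehicle. The treatments did not overlap in either state, and the gap was wider in intact females, -0.99 ± 0.070 (adjusted p = 2.84e-06, 1.99-fold lower), than in ovariectomized females, -0.23 ± 0.070 (adjusted p = 0.0229), a difference of 0.77 ± 0.099 (adjusted p = 0.000644). The smaller fall was -0.20 and -0.19 without ovariectomized dexamethasone replicate 1 and ovariectomized vehicle replicate 2, and then did not pass (adjusted p = 0.0777 and 0.0799).

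F13b, the carrier subunit of the factor XIII that crosslinks fibrin, had 11.89, 12.04 and 11.90 in ovariectomized dexamethasone livers, against 12.11, 12.09 and 12.06 in ovariectomized vehicle livers. In intact females F13b had 11.81, 11.99 and 11.85 on dexamethasone, against 12.82, 12.64 and 12.70 on vehicle. The intact vehicle libraries stood above all others, and F13b fell in intact females (-0.84 ± 0.065, adjusted p = 4.51e-06), with -0.14 ± 0.065 in ovariectomized females (adjusted p = 0.0981), or -0.19 without ovariectomized dexamethasone replicate 2, which passed (adjusted p = 0.0463). Under vehicle it was lower in ovariectomized than in intact females (-0.64 ± 0.065, adjusted p = 0.000168).

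The vitamin K dependent procoagulants changed less. In intact females F2, which encodes prothrombin, fell, at -0.34 ± 0.062 (adjusted p = 0.000935), F9 at -0.27 ± 0.068 (adjusted p = 0.0059) and F10 at -0.24 ± 0.047 (adjusted p = 0.00139). F7, the partner of tissue factor, changed at -0.25 ± 0.097 and did not pass (adjusted p = 0.0522). It passed without intact dexamethasone replicate 2 (-0.35), without intact vehicle replicate 3 (-0.30) and with the length and GC trend removed (-0.34). In ovariectomized females F10 fell (-0.17 ± 0.047, adjusted p = 0.0136), while F2, F7 and F9 gave -0.04, -0.14 and 0.13 and did not pass. Of the vitamin K dependent anticoagulants, Proc, the zymogen of activated protein C, fell, at -0.24 ± 0.075 in ovariectomized (adjusted p = 0.024) and -0.19 ± 0.075 in intact females (adjusted p = 0.0483). Neither fall of Proc was firm. In ovariectomized females it missed the threshold without any of the 3 dexamethasone replicates or vehicle replicate 1 or 2, at -0.25 to -0.21, and in intact females without dexamethasone replicate 1 or 3 or vehicle replicate 2 or 3, at -0.22 to -0.12. Pros1, which encodes the cofactor protein S, passed in neither response (0.15 ± 0.086 and -0.18 ± 0.086) and was lower after ovariectomy under vehicle (-0.34 ± 0.086, adjusted p = 0.0137), a call that ended with the length and GC trend removed (-0.26). Without intact dexamethasone replicate 3, Pros1 fell in intact females (-0.28, adjusted p = 0.00897).

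In the contact system, Klkb1, the plasma prekallikrein, had 11.23, 11.45 and 11.35 in ovariectomized dexamethasone livers, against 11.90, 11.92 and 11.83 in ovariectomized vehicle livers. In intact females it had 11.46, 11.71 and 11.46 on dexamethasone, against 12.25, 12.02 and 12.04 on vehicle. The treatments were apart in both states, and the falls were -0.54 ± 0.085 (adjusted p = 0.000562) and -0.56 ± 0.085 (adjusted p = 0.000288). Their difference was 0.02 ± 0.12 (adjusted p = 0.9). Kng1, which encodes the kininogen that releases bradykinin, fell, at -0.24 ± 0.085 in ovariectomized (adjusted p = 0.0387) and -0.38 ± 0.085 in intact females (adjusted p = 0.00338); the first did not pass without any 1 of the 6 ovariectomized libraries, at -0.28 to -0.20. F12, the factor that starts the contact cascade, did not pass in any comparison, and its dexamethasone response had a 95% confidence interval of -0.11 to 0.18 in ovariectomized and -0.26 to 0.03 in intact females. With the length and GC trend removed, F12 fell in intact females (-0.25, adjusted p = 0.00163), was lower after ovariectomy under vehicle (-0.20, adjusted p = 0.0155) and had a difference between responses of 0.33 (adjusted p = 0.007). F11, next to Klkb1 on chromosome 8, changed by 0.11 ± 0.15 in ovariectomized and 0.01 ± 0.15 in intact females. After ovariectomy under vehicle F11 was lower (-0.50 ± 0.15, adjusted p = 0.0258), a call lost without ovariectomized vehicle replicate 2 (-0.44) or 3 (-0.52). Its intact vehicle libraries were spread, at 11.66, 10.89 and 11.08, and without intact vehicle replicate 1, the highest, F11 rose with dexamethasone in intact females (0.24, adjusted p = 0.0312).

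Of the thrombin inhibitors, Serpind1, heparin cofactor II, fell in both states, at -0.21 ± 0.059 in ovariectomized (adjusted p = 0.0141) and -0.65 ± 0.059 in intact females (adjusted p = 1.19e-05), with a difference of 0.43 ± 0.084 (adjusted p = 0.00412). Without ovariectomized vehicle replicate 3 the smaller fall was -0.15 (adjusted p = 0.0551). Serpinc1, antithrombin, fell in intact females (-0.21 ± 0.067, adjusted p = 0.0238) and gave -0.11 ± 0.067 in ovariectomized females. The fall of Serpinc1 did not pass without intact dexamethasone replicate 1 or intact vehicle replicate 1 or 2, at -0.20 to -0.18.

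The fibrinolytic genes are those of plasmin and its control. Serpinf2, the main inhibitor of plasmin, had 14.16, 14.05 and 14.08 in ovariectomized dexamethasone livers, against 14.63, 14.51 and 14.78 in ovariectomized vehicle livers. In intact females Serpinf2 had 14.16, 14.14 and 14.12 on dexamethasone, against 14.74, 15.09 and 14.78 on vehicle. The treatments did not overlap in either state, and it fell, at -0.55 ± 0.093 (adjusted p = 0.000856) and -0.73 ± 0.093 (adjusted p = 9.84e-05). Plg, plasminogen, had 15.87, 15.95 and 15.89 in ovariectomized dexamethasone livers, against 15.90, 16.00 and 15.97 in ovariectomized vehicle livers. In intact females Plg had 15.65, 15.78 and 15.67 on dexamethasone, against 16.30, 16.36 and 16.19 on vehicle. Its libraries overlapped after ovariectomy (-0.05 ± 0.075, not passed) and lay apart in intact females (-0.58 ± 0.075, adjusted p = 0.0001), a difference of 0.53 ± 0.11 (adjusted p = 0.005). Cpb2, the carboxypeptidase that slows fibrinolysis, gave 0.08 ± 0.066 in ovariectomized females and fell in intact females (-0.24 ± 0.066, adjusted p = 0.00983).

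The remaining plasma proteins went separate ways. Hgfac, which encodes the activator of hepatocyte growth factor, fell in both states, at -0.42 ± 0.078 in ovariectomized (adjusted p = 0.00146) and -0.30 ± 0.078 in intact females (adjusted p = 0.00688). Vtn, vitronectin, which binds the terminal complement complex and the plasminogen activator inhibitor PAI-1, passed in no comparison. Its dexamethasone response had a 95% confidence interval of -0.13 to 0.21 in ovariectomized and -0.17 to 0.17 in intact females. The 9 members that fell in neither response were C6, C8b, C8g, Fgb, F7, Pros1, F11, F12 and Vtn.

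Other genes of the same pathways, from wider lists, were split. Against the shares of all genes given above (21.3% rose and 19.4% fell in ovariectomized females, 22.8% rose and 25.9% fell in intact females), these lists are described by counts only. Of 32 other complement genes tested, 4 rose and 5 fell with dexamethasone in ovariectomized females and 4 rose and 12 fell in intact females. Hc, which encodes C5, fell in intact females (-0.69 ± 0.065, adjusted p = 1.48e-05). C4a, the near copy of C4b, rose in both, at 0.78 ± 0.15 in ovariectomized (adjusted p = 0.00162) and 0.81 ± 0.15 in intact females (adjusted p = 0.000854). Its difference between responses was -0.04 ± 0.21 and did not pass (adjusted p = 0.905). Of 27 other genes of coagulation and fibrinolysis, 4 rose and 7 fell in ovariectomized females and 4 rose and 6 fell in intact females. Serpina5, the protein C inhibitor, rose in both, at 1.88 ± 0.25 (adjusted p = 0.000193) and 1.39 ± 0.25 (adjusted p = 0.000858). On vehicle Serpina5 lay near the floor, with means of 3.42 in ovariectomized and 3.47 in intact females, under the filter of 4. It met that filter only through its dexamethasone libraries, with means of 5.30 and 4.86. Serpine2, protease nexin-1, also rose in both, at 0.77 ± 0.22 (adjusted p = 0.0147) and 1.07 ± 0.22 (adjusted p = 0.00172). The rise of Serpine2 after ovariectomy did not pass without ovariectomized dexamethasone replicate 1 (0.51) or ovariectomized vehicle replicate 2 (0.66). Pzp and Proz, a broad protease inhibitor and protein Z, fell in intact females at -0.96 ± 0.084 (adjusted p = 9.28e-06) and -0.72 ± 0.057 (adjusted p = 5.16e-06). Mug1, a relative of Pzp, rose with dexamethasone in ovariectomized females (0.78 ± 0.10, adjusted p = 0.000198) and was lower after ovariectomy under vehicle (-0.94 ± 0.10, adjusted p = 0.000262). Of 10 genes of the vitamin K cycle and factor secretion, 6 rose and 3 fell in ovariectomized females and 2 rose and 3 fell in intact females.

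A further list held 10 genes for receptors and factors taken as possible regulators of the members. Of these, 5 rose and 0 fell with dexamethasone in ovariectomized females (0 also at an unadjusted p under 0.05), and 2 rose and 2 fell in intact females. Over all genes tested, 21.3% rose and 19.4% fell in ovariectomized females, and 22.8% rose and 25.9% fell in intact females. Il6ra, the interleukin-6 receptor, rose in ovariectomized females (1.54 ± 0.15, adjusted p = 2.32e-05), as did Cebpd (1.24 ± 0.22, adjusted p = 0.000997) and Hnf4a (0.81 ± 0.088, adjusted p = 5.22e-05). In intact females Cebpd rose (1.05 ± 0.22, adjusted p = 0.00193), and Nr3c1, the glucocorticoid receptor, fell (-0.57 ± 0.054, adjusted p = 1.44e-05). Under vehicle, Il6ra was lower in ovariectomized than in intact females (-1.17 ± 0.15, adjusted p = 0.000481), as were Esr1, the oestrogen receptor (-1.39 ± 0.35, adjusted p = 0.0132), and Nr3c1 (-0.43 ± 0.054, adjusted p = 0.000464). The difference between responses was 1.80 ± 0.21 for Il6ra (adjusted p = 0.000397) and 0.84 ± 0.12 for Hnf4a (adjusted p = 0.00125). Whether these levels bear on the members was not tested.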

How the data were processed

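The 12 libraries came from mouse liver RNA, extracted with TRIzol and RNeasy columns, made with TruSeq kits and sequenced on a NextSeq instrument, per the labels' protocols. The submitters' processing notes name Trim Galore, TopHat2, HTSeq, DESeq, DESeq2 and build mm9; for versions, annotation and transformation the sources used here give nothing. The authors deposited 1 table of log2 expression built on HTSeq counts and normalized with DESeq, per the labels. They are not per length, so levels are not compared between genes, and depth is unknown, so no counting interval is given. The table held 24962 entries from -2.22 to 22.03, and for 392 symbols with several entries the one with the highest mean was kept.

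Genes with a mean of at least 4 (12965 of 24033 symbols) were fitted in limma 3.58.1 under R 4.3.3, with 4 groups together and a trend in the prior variance (8 residual degrees of freedom). Tests were two-sided, and Benjamini-Hochberg adjustment ran over all of them, with a threshold of 0.05 and no minimum fold. The script was tested on simulated data. Members and lists were chosen with earlier results of these data known, so lists are given as counts and medians only. All members were named; libraries were given for members with the largest changes per comparison. Other pathway genes were named by size among those that passed, at most 4 a direction. Alternatives covered scaling, filters, a pseudocount, the libraries fitted, the replicate number as a block, a minimum fold and leaving out each library. Alternatives added after seeing the data removed a length and GC trend and the 6 members that share sequence with other genes. Motifs were read in RefSeq promoters on GRCm38.p6. A further pathway gene that the naming rule takes is not reported here, though counts include it.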

Additional observations from a re-analysis of the deposited data

Results flagged for a closer look

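The response to dexamethasone differed between ovariectomized and intact females for 17 of the 39 genes, by the limma test of that difference over all genes (adjusted p under 0.05). Over all genes tested, 15.3% passed upward and 9.65% downward. Each value is the log2 fold change in ovariectomized minus that in intact females, and all 17 were positive. The difference was 1.51 for Masp1, 0.82 for C3, 0.76 for C4b, 0.52 for Masp2, 0.36 for Cfb, 0.32 for Cfi and 0.27 for C4bp among complement genes. It was 0.87 for Fga, 0.77 for F5, 0.69 for F13b, 0.62 for Fgb, 0.55 for Fgg, 0.53 for Plg, 0.43 for Serpind1, 0.41 for F9, 0.32 for Cpb2 and 0.29 for F2 among coagulation genes. Masp1 alone passed with opposite signs, a rise in ovariectomized and a fall in intact females. After quantile normalization 8 of the 17 kept their call. Cfb, Cfi, C4bp, Fga, Fgb, Fgg, F2, F9 and Cpb2 lost it, and 3 other members (Mbl2, C8g and Hgfac) passed downward.

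The calls of 5 of the 17 genes did not hold when single libraries were left out. For Cfi the difference was 0.28 to 0.33 without intact dexamethasone replicate 1 or 2, intact vehicle replicate 1, ovariectomized dexamethasone replicate 1 or 3 or ovariectomized vehicle replicate 1, and did not pass. For C4bp it was 0.23 to 0.28 without intact dexamethasone replicate 1 or 2, intact vehicle replicate 3, ovariectomized dexamethasone replicate 3 or ovariectomized vehicle replicate 1 or 2. For F2 it was 0.27 to 0.30 without intact dexamethasone replicate 1, intact vehicle replicate 3, ovariectomized dexamethasone replicate 1 or 3 or ovariectomized vehicle replicate 1. For Cpb2 it was 0.26 to 0.32 without intact dexamethasone replicate 1, intact vehicle replicate 1, ovariectomized dexamethasone replicate 3 or ovariectomized vehicle replicate 1 or 2. For Fgb it was 0.57 to 0.61 without intact dexamethasone replicate 1, intact vehicle replicate 1 or ovariectomized vehicle replicate 3.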

How the results depend on the processing

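Under quantile normalization 1 gene rose with dexamethasone in intact females, 1 gene was higher in ovariectomized than in intact females on dexamethasone, and the difference between responses had 8 genes above 0 and 3 below; Fgb in ovariectomized females was -0.042, the reverse of its main value. Fitting only the libraries compared gave 1 gene higher after ovariectomy under vehicle, and 1 higher and 1 lower under dexamethasone. Asking for an absolute log2 fold change of at least 1 left 1 fall in intact females, 0 rises and 0 falls in ovariectomized females, 0 higher and 1 lower after ovariectomy under vehicle, 0 higher under dexamethasone and 1 above 0 in the difference between responses. With a length and GC trend removed, 0 genes were higher after ovariectomy under vehicle. The cause of these shifts was not tested. Leaving out 1 library at a time gave 7 to 11 falls and 3 to 4 rises with dexamethasone in ovariectomized females (7 without ovariectomized vehicle replicate 2), 26 to 29 falls and 0 to 1 rises in intact females (1 without intact dexamethasone replicate 3 or intact vehicle replicate 1), 16 to 19 lower and 1 to 2 higher after ovariectomy under vehicle, 0 to 2 higher and 0 lower under dexamethasone, and 12 to 21 above 0 and 0 to 1 below in the difference between responses (1 without intact dexamethasone replicate 3).

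Correlations of same-numbered libraries ran from -0.23 to 0.40, and 6 of 12 libraries correlated best with their own number. With only 3 replicate numbers some such matches arise by chance, so these values cannot decide whether the numbers pair the libraries. With the replicate number as a block, 12 genes fell and 4 rose in ovariectomized females, 30 fell and 0 rose in intact females, 19 were lower and 2 higher after ovariectomy under vehicle, 3 were higher and 0 lower under dexamethasone, and 17 were above 0 and 0 below in the difference between responses. With 3 libraries a group and no known depth, a gene that did not pass is not shown to be unchanged.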
